A study of Caenorhabditis elegans with 48 samples.

Results

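Adult *C. elegans* given the auxin analog K-NAA were compared with mock-treated adults at 3 neighbouring time points of the subjective day, CT7, CT9 and CT11, where CT is circadian time in hours. These are 12 of the 48 RNA-seq libraries of the experiment, chosen by their labels, with 6 K-NAA and 6 mock libraries and 2 culture plates per condition and time point. The other 36 libraries, 18 per condition, cover CT1 to CT5 and CT13 to CT23 and are used here only to ask where the 3 time points differ from the rest of the day.
All worms were JDW259 hermaphrodites, so both conditions carry the same alleles. The strain expresses the plant F-box protein TIR1, joined to the blue fluorescent protein mTagBFP2, from the broadly active eft-3 promoter, and its *nhr-23* gene carries the AID\* degron, a TEV site and a 3xFLAG tag. K-NAA lets TIR1 mark the tagged NHR-23 protein for breakdown. The K-NAA group was kept on plates with 0.4 mM K-NAA according to the labels (the Methods print a higher concentration) and the mock group on plates without it. Polyadenylated RNA came from whole adults that had been entrained by temperature cycles and moved to constant conditions, with FUdR in the plates, a drug that blocks the production of progeny. No K-NAA libraries of worms without the degron were analysed here, so an effect of K-NAA itself and an effect of losing NHR-23 cannot be told apart. The worms stayed on K-NAA throughout sampling, so the hour of the day and the time on K-NAA cannot be told apart either.

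NHR-23 is a nuclear hormone receptor of the ROR family. In larvae it drives the waves of gene expression that accompany each molt, including collagens, cuticle proteins and proteases. Its mammalian relatives, the RORs, bind a DNA element called RORE and activate clock genes such as Bmal1, which is why the gene is of interest in a circadian design. Heat shock genes, detoxification enzymes and immune effectors, which turn up repeatedly below, are the main inducible defences of the worm intestine and epidermis.

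The authors' values are TPM for 19885 genes, that is, each gene's share of the transcripts in a library, corrected for length. TPM keep no depth, so the spread between libraries is the only measure of precision. In the 12 libraries between 15465 and 16095 genes were above 0, and the plates of a condition and time point correlated at 0.983 to 0.988. One library stood apart. Replicate 2 of K-NAA at CT11 lay at the end of the second principal component, its major sperm protein genes summed to 6.31 TPM against 73.9 to 124.7 TPM in the other K-NAA libraries and 53.1 to 153.2 TPM in mock, and it had the highest sum of ribosomal protein genes (315477 TPM). Among marker lists, intestine markers summed to 7424 to 8805 TPM in K-NAA and 6202 to 6972 TPM in mock, and neuron markers to 377.5 to 409.8 TPM in K-NAA and 419.5 to 436.4 TPM in mock. Both pairs of ranges were apart, while the sums of body wall muscle, pharynx, hypodermis, sperm, oocyte, germline and embryo markers overlapped. Such sums follow the most abundant genes, and *vit-2*, described below, made up most of the intestine sum. Gene by gene the medians of both lists were near 0. The median log2 fold change of K-NAA over mock was 0.05 for the 12 intestine markers, 3 of them below 0. For the 16 neuron markers it was 0.01, with 7 below 0. Of the intestine markers 2 passed as higher (16.7%, against 0.681% of all genes). Of the neuron markers 1 passed as lower (6.25%, against 3.12%). This was *snb-1* (-0.14, limma adjusted p = 0.0269), whose call held in 3 of the 12 fits without a single library. In whole worms fewer cells of a type and less RNA per cell cannot be told apart.

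K-NAA changed 525 of the 13813 genes tested at CT7 to CT11 (limma, adjusted p under 0.05). Of these, 94 genes (0.681% of those tested) were higher and 431 genes (3.12%) were lower in K-NAA than in mock. The largest changes were losses: 46 of the lower genes fell by at least 1 on the log2 scale, which is a change of at least 2-fold, while 7 rose by as much. All 525 had the same sign at CT7, CT9 and CT11, which calling them on these same libraries in part fixes. In 361 of them the 6 K-NAA libraries did not overlap with the 6 mock libraries. The same separation was seen for 494 of all genes tested (3.58%).
The balance of the calls depended on the scaling. After median ratio rescaling 143 genes were higher and 218 lower, and after quantile normalization 166 were higher and 235 lower, against 94 and 431. Higher calls were therefore 39.6 and 41.4% of all calls under these scalings, and 17.9% without them. The median of all genes moved by less than 0.1 on the log2 scale, at -0.04 without rescaling and 0.0044 and 0.0024 after it.
The number of calls also rested on the number of libraries. It was 331 without replicate 2 of K-NAA at CT11. Leaving out K-NAA replicate 1 or 2 at CT7, or 1 or 2 at CT9, gave 291, 274, 262 and 347 calls, and leaving out mock replicate 1 at CT7 or mock replicate 2 at CT9 or CT11 gave 318, 297 and 248. With the 6 libraries of replicate 2 alone 4 genes passed, and with those of replicate 1 alone 38.

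*lips-11*, a lipase-related gene, had the largest change of all genes tested. It was at 1.45 and 2.02 TPM at CT7, 0.460 and 1.01 TPM at CT9, and 0.803 and 1.32 TPM at CT11 in K-NAA plates. The mock plates had 96.5 and 113 TPM, 86.4 and 112 TPM, and 86.7 and 94.6 TPM at the same hours. The transcript was thus nearly absent from every K-NAA plate and well expressed in every mock plate, and the log2 fold change was -5.94 ± 0.16 (± SE, the standard error, limma adjusted p = 6.5e-09). *lips-11* lies on chromosome II of WBcel235 at 1108841 to 1111001, on the minus strand.
*Y41C4A.32*, a gene with no role known here, behaved much the same from a higher level. It ranged from 5.18 to 19.4 TPM in K-NAA (median 8.63) and from 384 to 557 TPM in mock (median 458.5), a log2 fold change of -5.53 ± 0.26 (SE, limma adjusted p = 6.29e-07). It lies on chromosome III at 11721706 to 11723607, on the plus strand. *cdr-4*, a gene of the cadmium-responsive family, ranged from 12.1 to 19.6 TPM in K-NAA (median 14.5) and from 121 to 161 TPM in mock (median 136). Its log2 fold change was -3.17 ± 0.11 (SE, limma adjusted p = 5.1e-08). With *hsp-16.11*, described below, *lips-11* and *cdr-4* were the genes among those named here that passed under every one of the 28 alternatives tried.
3 further genes among the 10 largest losses had low levels. *cyp-13A4*, a cytochrome P450, was at 0.0498 to 0.195 TPM in K-NAA and 3.57 to 7.37 TPM in mock. *F22E5.6* was at 0.129 to 1.23 TPM in K-NAA and 5.93 to 10.4 TPM in mock. *sdz-35*, named as a SKN-1 dependent transcript of the embryo, was at 0.224 to 1.31 TPM in K-NAA and 7.42 to 13.3 TPM in mock. Their log2 fold changes of -3.25, -2.96 and -2.88 are on the log2(TPM + 0.5) scale, which understates the change of genes near 0, and the calls of all 3 were lost only with replicate 2 alone (adjusted p from 0.142 to 0.161 from limma).

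**Figure D1:**
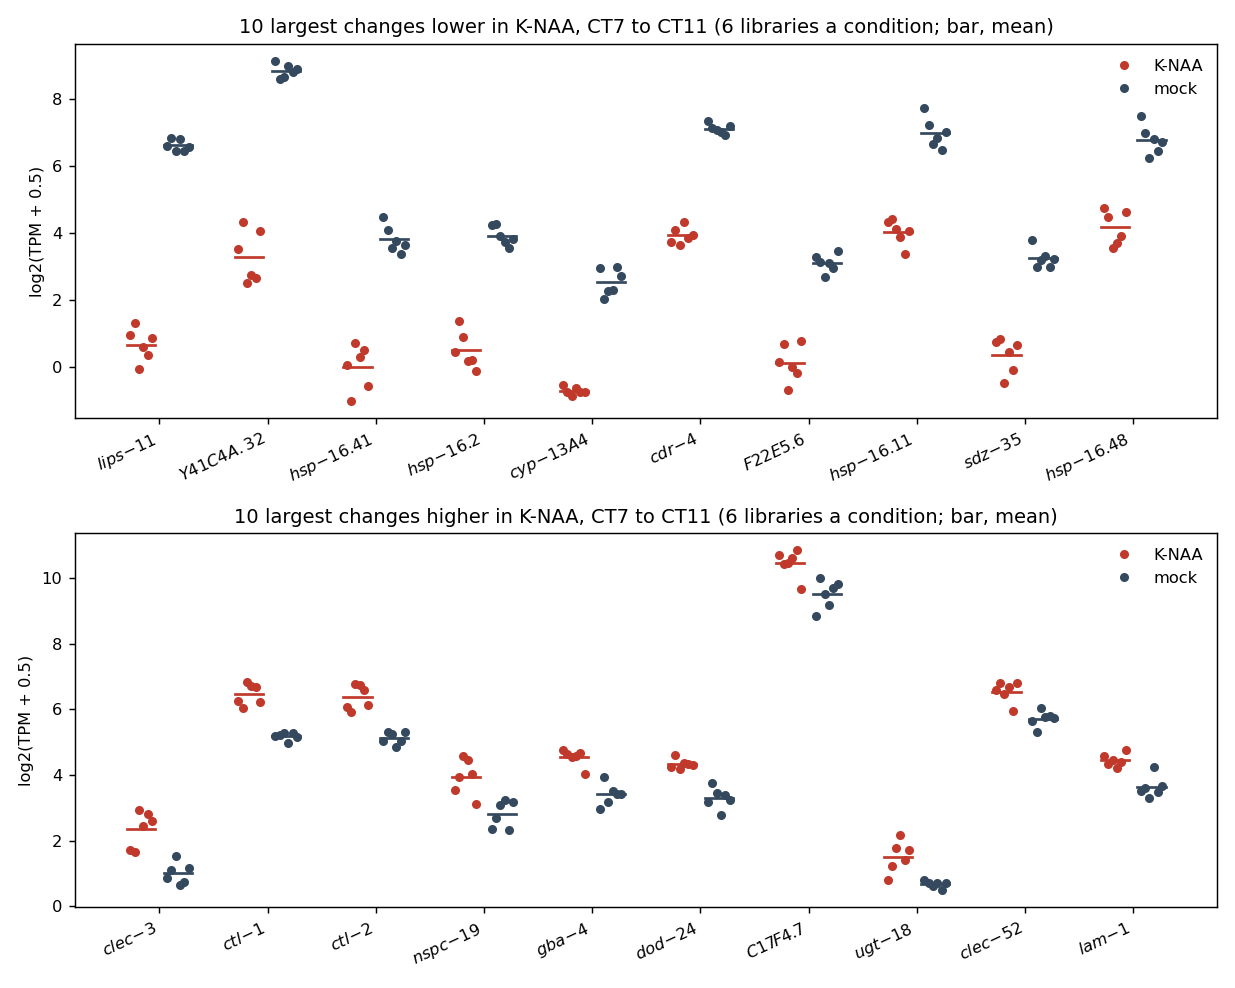
The 10 genes with the largest losses (upper panel) and gains (lower panel) at CT7 to CT11. The vertical axis is log2(TPM + 0.5), points are single libraries (6 per condition, K-NAA left in red and mock right in dark blue) and bars are means. The 10 lowered genes show no overlap between conditions, and *lips-11* and *Y41C4A.32* lie furthest apart.

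The small heat shock proteins, chaperones that bind unfolding proteins, were the clearest group among the losses. *hsp-16.11* ranged from 9.84 to 20.8 TPM in K-NAA (median 16.6) and from 87.6 to 211 TPM in mock (median 120). *hsp-16.48* ranged from 11.2 to 26.6 TPM in K-NAA (median 18.2) and from 75.2 to 177 TPM in mock (median 108). The log2 fold changes were -2.95 ± 0.14 (SE, adjusted p = 6.29e-07) and -2.60 ± 0.16 (SE, adjusted p = 5.47e-06, limma for both). These genes have near-identical copies, *hsp-16.1* and *hsp-16.49*, so how reads were shared within each pair is uncertain.
The other pair of the family lies side by side on chromosome V and is transcribed in opposite directions. *hsp-16.2* (1804334 to 1804957) was at 0.426 to 2.13 TPM in K-NAA and 11.2 to 18.8 TPM in mock, a log2 fold change of -3.41 (adjusted p = 9.14e-07 from limma). *hsp-16.41* (1805178 to 1805875) was at 0 to 1.14 TPM in K-NAA and 9.94 to 21.7 TPM in mock, with -3.81 (adjusted p = 3.85e-05 from limma). No library of one condition reached the other in any of these 4 genes.
Of the 16 heat shock genes tested, 0 were higher and 7 were lower (43.8%), against 0.681 and 3.12% of all genes. The median log2 fold change was -0.30, against -0.04 for all genes. This list, like the others, was chosen with earlier results of these data known. Besides the small heat shock genes the 7 included *hsp-70*, the inducible Hsp70 (-1.46, adjusted p = 0.000408), *F44E5.4* (-1.86, adjusted p = 0.031) and *dnj-13*, a DnaJ cochaperone (-0.29, adjusted p = 0.00315, all from limma). The abundant chaperones that cells use at rest did not pass, although 15 of the 16 genes tested were below 0. *hsp-1*, the constitutive Hsc70, had a log2 fold change of -0.21 (adjusted p = 0.0526), and *hsp-90* had -0.11 (adjusted p = 0.126, both from limma). *hsf-1*, the factor that switches these genes on, had -0.12 (adjusted p = 0.338 from limma).

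The endoplasmic reticulum (ER) unfolded protein response raises chaperones and folding enzymes for secreted proteins. Of its 18 genes tested, 0 were higher and 10 lower (55.6%, against 3.12% of all genes), with a median of -0.33. The count of 10 was the same under both rescalings. *crt-1*, which encodes calreticulin, an ER chaperone that holds calcium, ranged from 343 to 422 TPM in K-NAA (median 370.8) and from 507 to 581 TPM in mock (median 567). Its log2 fold change was -0.57 ± 0.057 (SE, limma adjusted p = 0.000261). The change was small beside that of the small heat shock genes, but the 6 libraries of each condition were as cleanly apart.
Most of the other lowered members are folding factors. *pdi-2* and *pdi-6*, protein disulfide isomerases, had log2 fold changes of -0.73 and -0.70, *hsp-3* and *hsp-4*, the BiP chaperones, -0.60 and -0.40, and *enpl-1*, the ER Hsp90, -0.44 (adjusted p from 0.0015 to 0.0139 from limma). *manf-1*, *dnj-7* and *ero-1* also fell, with log2 fold changes of -0.40, -0.36 and -0.29. *ckb-2*, a choline kinase of phospholipid synthesis and not a folding factor, changed most, at 3.29 to 6.10 TPM in K-NAA and 18.1 to 25.8 TPM in mock (log2 fold change -2.13, adjusted p = 5.75e-06 from limma). The sensors and factors of the response did not pass: *ire-1* had -0.09, *pek-1* -0.12, *atf-6* 0.12 and *xbp-1* 0.0027 (adjusted p from 0.524 to 0.985 from limma).

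Transcripts of the mitochondrial genome, which encodes core subunits of the respiratory chain, were lower as a group. Their sum was 2082 to 2642 TPM in K-NAA (median 2275) and 2662 to 3603 TPM in mock (median 2912), without overlap. Of 12 genes tested, 0 were higher and 6 were lower (median -0.44), and 4 were lower under each rescaling and without replicate 2 of K-NAA at CT11. *nduo-4*, a complex I subunit, was at 92.6 to 115 TPM in K-NAA and 121 to 156 TPM in mock (log2 fold change -0.42, adjusted p = 0.00481), and *ctb-1*, cytochrome b, was at 311 to 393 TPM in K-NAA and 422 to 560 TPM in mock (-0.45, adjusted p = 0.0104, both from limma). Levels of these genes were read from polyadenylated RNA. In the mitochondrial unfolded protein response list 1 of 10 genes passed, *hsp-6*, the mitochondrial Hsp70, with -0.38 (adjusted p = 0.0236 from limma), and that call held in 4 of the 12 fits that left out a single library.

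Detoxification genes were counted by family, against 0.681% of all genes higher and 3.12% lower. Of 56 UDP-glucuronosyltransferases, which attach sugar groups to foreign compounds, 3 were higher (5.36%) and 8 lower (14.3%). *ugt-19* was at 1.68 to 2.99 TPM in K-NAA and 7.17 to 15.1 TPM in mock (log2 fold change -2.05, adjusted p = 5.99e-05), whereas *ugt-48* was at 22.4 to 26.8 TPM in K-NAA and 11.7 to 15.7 TPM in mock (0.82, adjusted p = 0.000109, both from limma). Of 43 glutathione S-transferases 3 were higher (6.98%) and 1 lower (2.33%). *gst-4*, a widely used readout of the oxidative stress factor SKN-1, was at 39.4 to 53.8 TPM in K-NAA and 26.2 to 36.2 TPM in mock (0.65, adjusted p = 0.00284 from limma), and *gst-8*, at 0 to 0.464 TPM in K-NAA and 0.647 to 3.18 TPM in mock, was the lowered one. Of 53 cytochrome P450 genes 1 was higher (1.89%) and 2 lower (3.77%), a lower share near that of all genes, and without replicate 2 of K-NAA at CT11 the counts were 0 and 4. Of 36 ABC transporters 2 were higher and 2 lower (5.56% each), and after median ratio rescaling 0 were lower.

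Of the 3 catalases, which break down hydrogen peroxide, 2 were higher. *ctl-1*, the cytosolic catalase, ranged from 65.3 to 112.6 TPM in K-NAA (median 89.2) and from 30.9 to 38.3 TPM in mock (median 36.3). *ctl-2*, the peroxisomal catalase, ranged from 60.3 to 109 TPM in K-NAA (median 82.5) and from 28.1 to 39.1 TPM in mock (median 34.9). Every K-NAA plate was above every mock plate for both genes, with log2 fold changes of 1.28 ± 0.12 (SE, adjusted p = 0.00015) and 1.24 ± 0.14 (SE, adjusted p = 0.000882, limma for both). The pair are neighbours on chromosome II, from 14299556 to 14302027 (*ctl-2*) and from 14303568 to 14306260 (*ctl-1*), and are close copies, so reads may be shared between them. *ctl-3*, the third catalase, had -0.15 (adjusted p = 0.443 from limma). A list of 17 antioxidant genes adds superoxide dismutases, peroxiredoxins and thioredoxin and glutathione genes to the catalases. Of these 17 genes, 3 were higher (17.6%, against 0.681% of all genes) and 0 lower. The third was *gcs-1*, the glutathione synthesis enzyme (0.19, adjusted p = 0.0401 from limma), whose call held in 1 of the 12 fits without a single library. The superoxide dismutases *sod-1* to *sod-5* lay between -0.14 and 0.19 and did not pass.

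Of 107 C-type lectins, secreted proteins many of which respond to pathogens, 10 were higher and 4 lower, which is 9.35 and 3.74% of those tested, against 0.681 and 3.12% of all genes. Without replicate 2 of K-NAA at CT11 the counts were 8 and 1. *clec-3* was at 2.67 to 7.10 TPM in K-NAA and 1.06 to 2.42 TPM in mock (log2 fold change 1.35, adjusted p = 0.00612), the largest gain among the genes named here. *clec-63* was at 420 to 498 TPM in K-NAA and 292 to 334 TPM in mock (0.53, adjusted p = 0.000109, both from limma). *dod-24*, a gene of the infection response and of DAF-16 signalling, was at 17.7 to 23.98 TPM in K-NAA and 6.39 to 12.98 TPM in mock (1.05, adjusted p = 0.0014 from limma). Among other immune effectors, 1 of 11 lysozymes (9.09%) and 1 of 24 saposin-like genes (4.17%) were lower and 0 were higher. The medians of these 2 lists were above 0, at 0.23 and 0.10. *lys-3*, a lysozyme, was at 0.317 to 0.961 TPM in K-NAA and 2.36 to 10.7 TPM in mock (-2.17, adjusted p = 0.00335), and *spp-27*, a saposin-like gene, at 2.44 to 11.2 TPM in K-NAA and 19.03 to 41.6 TPM in mock (-2.09, adjusted p = 0.00524, both from limma).
The remaining gains came from several kinds of genes. *gba-4*, a glucocerebrosidase homolog, was at 15.9 to 26.5 TPM in K-NAA and 7.34 to 14.8 TPM in mock (1.13, adjusted p = 0.00311 from limma). *lam-1*, the laminin beta chain of basement membranes, was at 18.2 to 26.8 TPM in K-NAA and 9.34 to 18.5 TPM in mock (0.82, adjusted p = 0.0136 from limma), and here a single mock plate reached the K-NAA range. *nspc-19* (1.13) and *clec-52* (0.83) also rose. *C17F4.7* (0.94, adjusted p = 0.0496) and *ugt-18* (0.84, adjusted p = 0.025) had calls that held in 2 and 5 of the 12 fits without a single library.

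Among metabolic genes, yolk protein genes were higher in 2 of 6 (33.3%, against 0.681% of all genes). *vit-2* was at 5762 to 6664 TPM in K-NAA and 4917 to 5504 TPM in mock (0.25, adjusted p = 0.0201), and *vit-6* at 5655 to 6641 TPM in K-NAA and 4764 to 5448 TPM in mock (0.26, adjusted p = 0.0202, both from limma). Neither passed after quantile normalization, and single libraries decided both: the calls were lost without K-NAA replicate 2 or mock replicate 1 at CT7, and that of *vit-2* also without K-NAA replicate 1 at CT9 (adjusted p up to 0.0529 and 0.0512). *vit-2* and *asp-1*, an aspartyl protease whose call held in 3 of the 12 fits without a single library, are the 2 of 12 intestine markers that passed. Both are counted in the intestine sum given above, and *vit-2* makes up most of it, so that sum is not a separate observation. The sum without them was not tested.
*pck-1*, the gluconeogenesis enzyme PEPCK, was at 38.8 to 47.3 TPM in K-NAA and 28.9 to 34.9 TPM in mock (0.42, adjusted p = 0.00251 from limma). *lbp-8*, a lysosomal lipid chaperone, was at 0 to 1.07 TPM in K-NAA and 2.62 to 8.15 TPM in mock (-2.37, adjusted p = 0.00405 from limma). Of 52 genes of fatty acid activation and beta-oxidation 0 were higher and 2 lower (3.85%, near the 3.12% of all genes). Of 16 genes of nucleotide synthesis 0 were higher and 2 lower (12.5%), and of 15 fatty acid desaturases and elongases 1 was higher (6.67%) and 2 lower (13.3%), or 1 lower after either rescaling.
*nhr-23* mRNA ranged from 29.5 to 33.0 TPM in K-NAA (median 32.7) and from 33.7 to 37.6 TPM in mock (median 34.7), with a log2 fold change of -0.13 ± 0.042 (SE, limma adjusted p = 0.12). The ranges did not overlap, yet the change missed the threshold, and since the degron acts on protein the mRNA checks neither depletion nor labels. Of 9 genes taken as the study's cluster ii, a list the study itself chose, 0 passed (median 0.18). Among them are the collagens *dpy-17* and *sqt-3* and the molting genes *mlt-8* and *mlt-11*. *mlt-10*, which the paper also names in this cluster, was not in the list. The paper reports NHR-23 binding peaks near most of the cluster's genes, not all. Of 8 clock gene homologs 0 passed (median -0.05). Since 3.80% of all genes passed, a count of 0 in lists this short says little about their members. *lin-42*, the Period homolog, came nearest, at 1.29 to 1.91 TPM in K-NAA and 1.67 to 2.70 TPM in mock (-0.44, adjusted p = 0.0744 from limma). Also without a call were 70 numbered cuticle collagens, 181 nuclear hormone receptors, 78 ribosomal proteins and 33 proteasome subunits. The 28 major sperm protein genes had a median of -0.17, which was 0.31 without replicate 2 of K-NAA at CT11, and 0 passed.

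**Figure D2:**
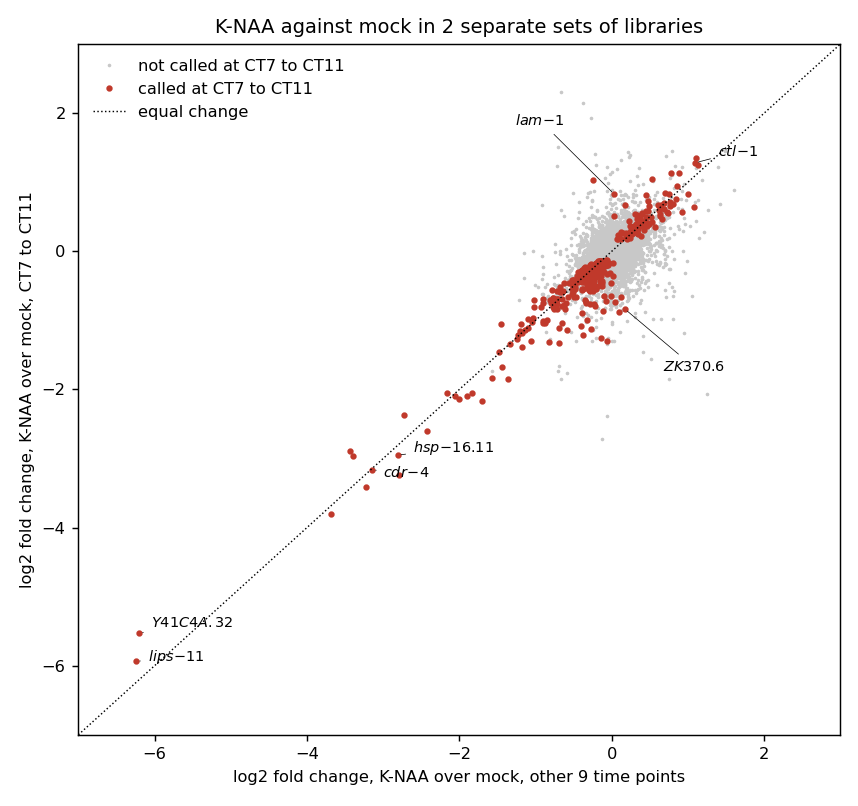
Log2 fold change of K-NAA over mock for 13813 genes at CT7 to CT11 (vertical axis) and at the other 9 time points (horizontal axis). Red points passed at CT7 to CT11, grey points did not, and the dotted line marks equal change. The large losses lie near the line, while *ZK370.6* and *lam-1* lie off it.

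What was shared with the other hours was tested first. At the other 9 time points 1125 genes (8.14%) were higher and 2127 genes (15.4%) lower in K-NAA, from 36 libraries and so with more power. Of the 525 genes called at CT7 to CT11, 462 (88.0%) were also called there in the same direction and 0 in the opposite one. Those 462 genes are 14.2% of the 3252 genes called at the other hours. Across genes the fold changes of these separate sets of libraries correlated with a Pearson r of 0.618 and a Spearman rho of 0.531 (13813 genes, which are not independent replicates).
The leading genes had nearly the same change in both. *lips-11* had -5.94 at CT7 to CT11 and -6.24 at the other hours, *cdr-4* -3.17 and -3.15, *crt-1* -0.57 and -0.64, and *ctl-1* 1.28 and 1.09. In windows of equal size, with 12 libraries each, the calls numbered 243 at CT1 to CT5, 525 at CT7 to CT11, 751 at CT13 to CT17 and 759 at CT19 to CT23. No test was made of the difference between these counts.
In the hsp-16 genes the K-NAA level was low at all hours while the mock level varied. *hsp-16.11* had medians of 16.97, 16.55, 17.09 and 19.45 TPM in K-NAA over the 4 windows, against 202.2, 120.4, 120.0 and 65.7 TPM in mock. Its log2 fold changes were -3.82, -2.95, -2.70 and -1.91. *hsp-16.2* had fold changes of -4.42, -3.41, -2.97 and -2.302 over the same windows, with mock medians of 27.2, 14.1, 15.4 and 6.01 TPM. At CT7 to CT11 both genes thus sat in the middle of their range over the day, and their difference from the other hours was -0.14 (*hsp-16.11*, SE 0.34) and -0.18 (*hsp-16.2*, SE 0.41).

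**Figure D3:**
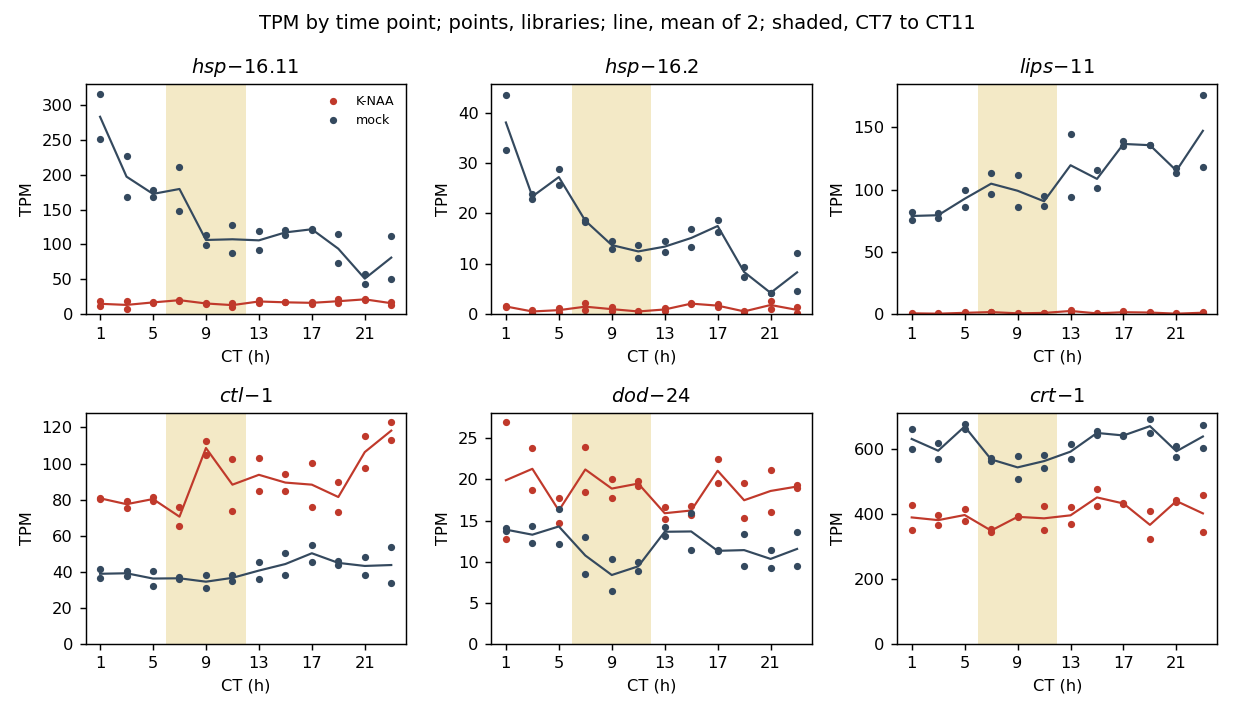
TPM of 6 genes at 12 time points from CT1 to CT23 (horizontal axis, circadian time in hours). Points are libraries, lines join the means of 2 plates, K-NAA is red and mock dark blue, and the shaded band marks CT7 to CT11. *hsp-16.11* and *hsp-16.2* stay low in K-NAA at all hours while their mock levels are highest at CT1.

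What was particular to CT7 to CT11 was tested as the difference between the K-NAA effect in these 12 libraries and that in the other 36. 0 genes passed at an adjusted p under 0.05 and 1 gene at 0.30 (limma), and 512 genes had an unadjusted p under 0.05, which is 3.71% of those tested. No gene is thus shown to respond at these hours alone. Of the 63 genes called at CT7 to CT11 and not at the other hours, 29 had an unadjusted p under 0.05 for the difference. Picking genes by a call in one set and none in the other favours a small p here. The count therefore cannot show that these genes are particular to the window. The values of the genes with the smallest p follow as a description.
*ZK370.6* came closest. Its K-NAA plates had 1.66 and 1.12 TPM at CT7, 1.15 and 2.09 TPM at CT9, and 1.86 and 1.09 TPM at CT11, against 2.21 and 3.09, 3.29 and 3.02, and 3.45 and 3.04 TPM in mock plates. All 6 K-NAA plates were below all 6 mock plates, with a log2 fold change of -0.83 ± 0.15 (SE, limma adjusted p = 0.0138). At the other hours the medians were 2.13 TPM in K-NAA and 1.89 TPM in mock, and the fold change was 0.17. The median of the K-NAA plates was thus lower, and that of the mock plates higher, at CT7 to CT11 than at the other hours. The difference of the effects was -1.004 ± 0.19 (SE, limma adjusted p = 0.0849). It passed 0.05 in 1 of the 12 fits without a single library, where the limma adjusted p rose to 0.549. That was the fit without K-NAA replicate 2 at CT9, the K-NAA plate with the highest level (-1.09, limma adjusted p = 0.0407). *ZK370.6* lies on chromosome III at 8741933 to 8743846, on the minus strand.
*trx-3*, an intestinal thioredoxin, was at 1.43 to 4.80 TPM in K-NAA and 4.89 to 7.49 TPM in mock at CT7 to CT11, just apart, with a log2 fold change of -0.86 (adjusted p = 0.0183 from limma). At the other hours it had -0.12, with medians of 3.48 TPM in K-NAA and 3.78 TPM in mock. The K-NAA level was similar in both sets and the mock level was higher at CT7 to CT11. The difference was -0.74 ± 0.16 (SE, limma adjusted p = 0.39). It passed in 1 of 31 alternatives, without the 4 libraries of CT9, where it was -1.01 (limma adjusted p = 0.03). *T10B9.9*, *C54D2.2*, *W06G6.17* and *F13B6.1* had the same pattern of a loss at CT7 to CT11 (-0.88, -1.305, -0.99 and -1.22, each past the threshold) that was smaller or absent at the other hours (0.09, -0.06, -0.32 and -0.38). The differences were -0.97, -1.24, -0.67 and -0.84, and none of these passed. All 5 genes were at low levels, with medians of at most 7.59 TPM in either condition.
In the other direction *lam-1* had 0.82 at CT7 to CT11 and 0.03 at the other hours, a difference of 0.79 (SE 0.23, unadjusted p = 0.0016 from limma). *dod-24* had 1.05 and 0.53, a difference of 0.52 (SE 0.17). Its K-NAA medians were 19.5 TPM at CT7 to CT11 and 18.3 TPM at the other hours, against 9.43 and 12.7 TPM in mock, so that the mock level was the one that differed. *tag-280* (0.20 against -0.26) and *daf-1*, a TGF-beta receptor gene (0.02 against -0.23), had the smallest p of a positive difference without a call at CT7 to CT11. *daf-1* was at 10.9 to 12.1 TPM in K-NAA and 10.5 to 12.2 TPM in mock, fully overlapping, while at the other hours its medians were 10.7 TPM in K-NAA and 12.9 TPM in mock.
All 20 genes with the smallest p, 10 in each direction, kept the sign of their difference under all 31 alternatives, which the choice of genes in part fixes.

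**Figure D4:**
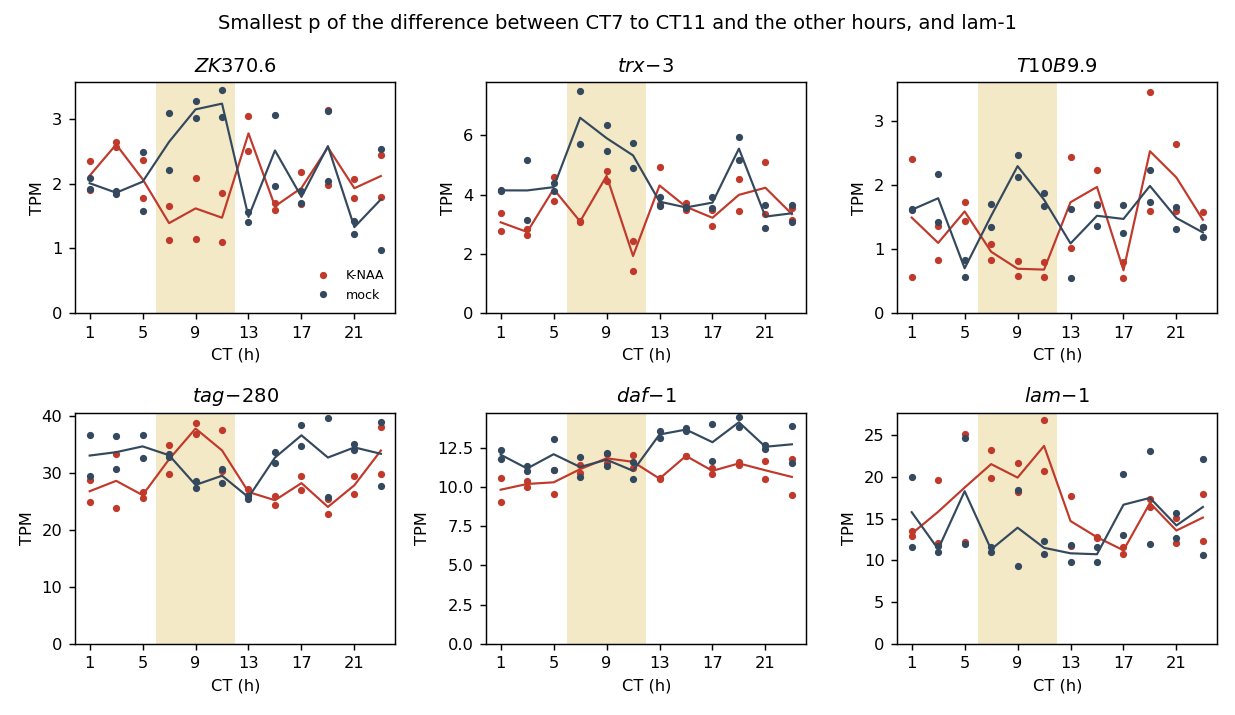
TPM of 6 genes among those with the smallest p for the difference between CT7 to CT11 and the other hours. The horizontal axis is circadian time in hours, points are libraries (K-NAA red, mock dark blue), lines join the means of 2 plates and the shaded band marks CT7 to CT11. In *ZK370.6* all 6 mock libraries lie above all 6 K-NAA libraries inside the band, and the conditions overlap outside it.

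A test of the K-NAA effect differing among CT7, CT9 and CT11 called 0 genes (limma, lowest adjusted p 0.693), with 692 genes (5.01%) at an unadjusted p under 0.05. *ctl-1*, for example, had log2 fold changes of 0.94, 1.65 and 1.24 at CT7, CT9 and CT11, and *lips-11* had -5.57, -6.36 and -5.89. There were 2 plates per condition and hour, and the result does not show that the hours were alike. The vitellogenin list had medians of -0.06, 0.56 and 0.17 at CT7, CT9 and CT11, and the cluster ii list -0.05, 0.53 and 0.07.
Over the 4 windows some list medians were close and others were not. Median log2 fold changes of the ER list were -0.34, -0.33, -0.32 and -0.27 over CT1 to CT5, CT7 to CT11, CT13 to CT17 and CT19 to CT23. Those of the mitochondrially encoded list were -0.22, -0.44, -0.44 and -0.52, and those of the vitellogenins 0.25, 0.24, 0.43 and 0.49. Those of the major sperm protein genes were -0.09, -0.17, 0.89 and 0.88. These differences between windows were not tested for the lists. At the other hours 12 of 18 ER genes, 10 of 12 mitochondrially encoded genes and 12 of 16 heat shock genes were lower, against 15.4% of all genes. There 1 heat shock gene was higher, and 19 of 70 numbered cuticle collagens were, against 8.14% of all genes. At CT7 to CT11 0 of 70 collagens were higher, against 0.681% of all genes. The collagen medians were close, at 0.08 at CT7 to CT11 and 0.10 at the other hours. This comparison is between 36 and 12 libraries, and 5 of the 70 collagens had an unadjusted p under 0.05 for the difference.

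**Figure D5:**
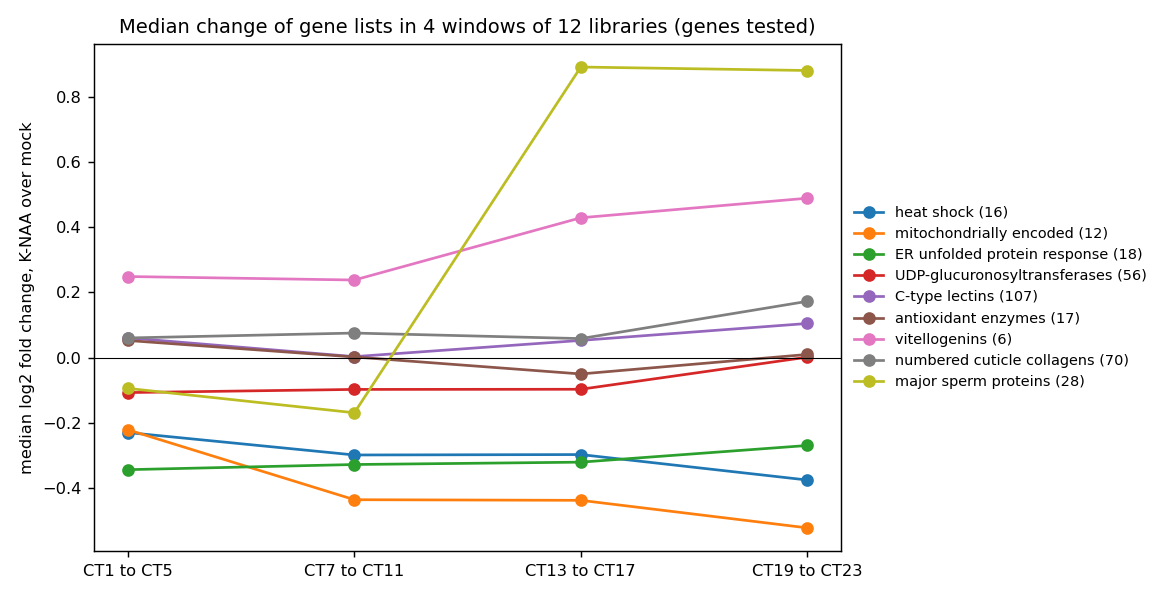
Median log2 fold change of K-NAA over mock (vertical axis) for 9 gene lists in 4 windows of 12 libraries each (horizontal axis), with the number of genes tested in the legend. The heat shock, ER and mitochondrially encoded lists lie below 0 in all 4 windows and the vitellogenins above 0, while the major sperm protein genes lie at -0.17 at CT7 to CT11 (0.31 without replicate 2 of K-NAA at CT11) and at 0.89 at CT13 to CT17.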

How the data were processed

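The members and gene lists were chosen with earlier results of these data known. Read quantification was done by the authors with Salmon on WormBase mRNA sequences, and they deposited TPM per gene. The notes that came with the samples name build ce10. The step that turned transcript values into gene values was not described in the sources read. Because TPM carry no read totals, precision comes from the spread between libraries alone. In the tests of condition and of the window difference, this spread is that between culture plates. It also holds any change of the K-NAA effect among the time points of a set of hours. Gene positions come from Ensembl WBcel235, in which 19523 of 19885 names were found.

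Testing was limited to the 13813 genes that averaged 0.25 TPM or more in the 48 libraries. Values were log2(TPM + 0.5), so fold changes of low genes are understated. They were fitted with limma 3.58.1 in R 4.3.3, with a trend in the prior variance, the time point as a factor and Benjamini-Hochberg adjustment. The difference from the other hours was the interaction of condition and window. Fits were tested on simulated data. Named genes were the 10 highest and 10 lowest called changes (mean of at least 1 TPM, same sign at 3 time points), the 10 smallest p of the window difference in each direction, *nhr-23*, clock homologs, cluster ii genes, and up to 3 called genes per list. List members named beyond this rule, such as *hsp-70* and *ctl-3*, were chosen after their values were seen. Alternatives covered the pseudocount, filter, scaling, variance trend, replicate block, left-out libraries, a fit of all libraries and a fit with no time term. Columns of rhythm statistics that the authors computed were not used.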

Additional observations from a re-analysis of the deposited data

Results flagged for a closer look

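Among groups of 6 libraries of one condition, 9 groups (8.65% of those examined) had a highest or lowest library far from the others, where chance flags about 1 in 20 groups. *gba-4* had 15.9 TPM in replicate 2 of K-NAA at CT11, against 23.1 to 26.5 TPM in the other K-NAA libraries. Replicate 2 of K-NAA at CT7 was highest for *dod-24* (23.98 TPM, others 17.7 to 20.1 TPM), *C37C3.12* (2.49 TPM, others 0.923 to 1.505 TPM) and *F13B6.1* (0.976 TPM, others 0.476 to 0.604 TPM). *B0334.6* was highest in replicate 2 of K-NAA at CT9, with 1.605 TPM against 0.815 to 1.04 TPM.
Among mock libraries, *lam-1* had 18.5 TPM in replicate 2 at CT9 (others 9.34 to 12.28 TPM) and *W02B8.1* had 3.18 TPM in replicate 2 at CT7 (others 1.55 to 2.11 TPM). Replicate 1 of mock at CT7 was highest for *sdz-35* (13.3 TPM, others 7.42 to 9.40 TPM) and lowest for *ZK370.6* (2.21 TPM, others 3.02 to 3.45 TPM).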

How the results depend on the processing

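Against 525 calls, there were 269 without the variance trend (55 higher, 214 lower), 143 were higher and 218 lower after median ratio rescaling and 166 and 235 after quantile normalization. Without CT7, CT9 or CT11 there were 89 (28 higher, 61 lower), 110 (25 and 85) and 72 (19 and 53). Leaving out replicates or single libraries gave 4 to 506 calls, 0 to 100 higher and 4 to 406 lower. The difference from the other hours gave 1 call (*trx-3*) without CT9, 1 (*ZK370.6*) without replicate 2 of K-NAA at CT9, and 0 in every other alternative, so 0 to 1 with libraries left out. Without a replicate the other hours had 1761 to 2679 calls, 543 to 1024 higher and 737 to 2136 lower. Same-numbered plates of the 2 conditions deviated little together at CT7, CT9 and CT11 (correlations -0.0657, -0.0379 and 0.0776). At CT23 the correlation was 0.185. Whether same-numbered plates share a batch was not tested. A replicate block gave 515 calls, and a block for plate pairs within time points 218 (46 higher, 172 lower). Of 78 named calls, all kept their direction in every alternative, 52 passed without each single library, and 3 passed in every alternative. *lin-42* passed in 1 of 28 alternatives, without replicate 1 of K-NAA at CT7 (-0.53, adjusted p = 0.0397 from limma). The cause of these shifts was not tested.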
